A study of Mus musculus with 8 samples.

Results

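The genes described here act in the hydrolysis of stored fat and in its control by catecholamines and insulin: Adrb3, Pde3b, Pnpla2, Lipe, Mgll, Abhd5, Plin1 and G0s2. They were chosen by their symbols, and all 8 were among the 56749 features of the count matrices of this single-nucleus RNA-seq series of mouse visceral white adipose tissue. Nuclei of snap-frozen tissue were stained with DAPI, sorted and counted with a 10x Genomics 3' droplet assay, which tags RNA molecules with unique molecular identifiers (UMIs). The 8 mice formed 4 groups of 2. The control genotype p21+/mCherry was fed the Standard diet (SD) in one group, here mCherry SD, and the High Fat diet (HFD) in another, here mCherry HFD. The genotypes p21+/mCherry-Tert and p21+/mCherry-TertCi were both fed the High Fat diet and are called Tert HFD and TertCi HFD. All groups thus carried an mCherry cassette at p21, the locus of the cell cycle inhibitor Cdkn1a, and per the series text the p21 promoter drives Tert, the catalytic subunit of telomerase, or TertCi, so expression is limited to cells in which that promoter is active. Ages, and what sets TertCi apart from Tert, are not given in the labels. Stromal vascular cells, from which mature adipocytes are usually removed, are named in the series text, whereas the sample labels give the whole tissue.

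Fat in an adipocyte is broken down in steps: the lipase encoded by Pnpla2 takes the first fatty acid from a triglyceride, hormone-sensitive lipase (Lipe) the next, and monoglyceride lipase (Mgll) the last. Abhd5 is the activator of the first lipase and G0s2 its inhibitor, and perilipin 1 (Plin1) coats the droplet and holds the activator back until it is phosphorylated. Catecholamines start the process through the beta-3 adrenergic receptor (Adrb3), which in mice is found mainly on adipocytes and raises cAMP, and insulin restrains it in part through the phosphodiesterase Pde3b, which degrades cAMP.

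Promoters of the members were read from RefSeq on GRCm38.p6, from 250 bases before to 50 bases after each start, and 6 of the 8 members had an entry, with 8 windows in all. Adrb3 and Pde3b had none. The windows of 3 members that were lower on the High Fat diet and of the 1 member that was higher are printed, so that a reader can see the sequence at the start of each. Capitals mark matches, on either strand, to any of 4 motifs: TGACG, which is the half-site of CREB, the factor that PKA activates; CACGTG, the E-box; TGTTTAC, a forkhead motif; and AGGTCA, the half-site of nuclear receptors such as PPARG. No motif overlapped another.
Lipe (chr7:25390063-25390362, minus strand): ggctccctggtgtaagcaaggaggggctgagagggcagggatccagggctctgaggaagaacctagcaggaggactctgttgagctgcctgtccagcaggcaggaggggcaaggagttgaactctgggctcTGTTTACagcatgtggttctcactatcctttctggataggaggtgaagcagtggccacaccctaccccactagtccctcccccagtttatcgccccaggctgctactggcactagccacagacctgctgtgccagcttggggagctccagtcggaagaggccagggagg
Mgll (chr6:88724162-88724461, plus strand): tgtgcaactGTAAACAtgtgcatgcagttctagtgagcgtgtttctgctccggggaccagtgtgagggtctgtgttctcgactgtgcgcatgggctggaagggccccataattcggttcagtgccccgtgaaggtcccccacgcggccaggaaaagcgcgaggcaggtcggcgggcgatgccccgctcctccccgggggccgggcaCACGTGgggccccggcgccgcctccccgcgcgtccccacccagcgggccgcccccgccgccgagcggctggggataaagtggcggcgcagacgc
Abhd5 (chr9:122351366-122351665, plus strand): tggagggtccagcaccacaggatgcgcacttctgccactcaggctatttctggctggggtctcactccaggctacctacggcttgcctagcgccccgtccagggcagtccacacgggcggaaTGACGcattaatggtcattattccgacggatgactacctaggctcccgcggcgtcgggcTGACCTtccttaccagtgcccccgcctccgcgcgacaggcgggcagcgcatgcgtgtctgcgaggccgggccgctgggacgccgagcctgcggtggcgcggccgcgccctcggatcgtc
G0s2 (chr1:193273139-193273438, minus strand): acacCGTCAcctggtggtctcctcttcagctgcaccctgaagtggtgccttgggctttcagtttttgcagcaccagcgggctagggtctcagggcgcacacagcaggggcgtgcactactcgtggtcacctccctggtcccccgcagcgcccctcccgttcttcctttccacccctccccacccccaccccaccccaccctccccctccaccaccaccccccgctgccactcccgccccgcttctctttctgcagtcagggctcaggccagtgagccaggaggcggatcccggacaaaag

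In these windows the Lipe promoter held TGTTTAC, and the Mgll promoter held TGTTTAC on the opposite strand and CACGTG. That forkhead motif was present in 3.65% of the 32851 promoters of the table and the E-box in 7.15%. Abhd5 held TGACG and, on the opposite strand, AGGTCA, which were present in 20.8% and 16.3% of promoters. G0s2 held TGACG on the opposite strand. The other window of Lipe, which lies upstream, held CACGTG, and the other window of Mgll held TGACG on the opposite strand. In the single windows of Pnpla2 and Plin1 none of these letters was found. A match describes the letters and says nothing of whether a factor bound there.

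Libraries held 23378488 to 139749876 UMIs, and 30209 nuclei were kept, 1978 to 7433 per library. Between 0 and 14 barcodes were shared by any of the 28 pairs of libraries. Adipocyte-like nuclei were 4 clusters in which all 10 adipocyte markers were raised, none of them a member gene, and they made up 5332 nuclei. They numbered 609 and 841 in mCherry SD, 247 and 89 in mCherry HFD, 478 and 845 in Tert HFD and 1726 and 497 in TertCi HFD, which was 23.9% and 28.04%, 3.32% and 3.09%, 13.7% and 26.5%, and 30.2% and 25.1% of nuclei. Clusters with markers of a second lineage, which were left out, held 64.2% and 54.7% of nuclei in mCherry SD. They held 23.9% and 30.6% in mCherry HFD, 34.3% and 21.3% in Tert HFD and 26.1% and 37.3% in TertCi HFD. With such clusters included where adipocyte was the best lineage, the counts were 1749 and 2159, 409 and 170, 987 and 1266, and 2493 and 982. The clusters that held most of the adipocyte-like nuclei differed: 56.7% of those of mCherry SD were in 1 cluster (led by Slc1a3 and Cyp2e1), 62.2% of those of mCherry HFD in a cluster with 8 of 11 macrophage markers raised, and 54.1% of those of Tert HFD and 41.8% of those of TertCi HFD in a cluster led by Cacna1e and Cadps. The median adipocyte-like nucleus held 17003 UMIs in mCherry HFD rep128, against 7037 over all nuclei of that library, and 2083 to 9674.5 in the other libraries. Across the adipocyte-like sums, all 11 macrophage markers were detected in 7 of the 8 libraries, and Cd68 was at 0 in mCherry SD rep144. Their summed level was 1410 and 1063 CPM (counts scaled to a common library total) in mCherry SD, 1607 and 1745 in mCherry HFD, 1200 and 879 in Tert HFD and 698 and 806 in TertCi HFD. That of the 10 progenitor markers, none of them at 0, was 700 and 1002, 1840 and 3016, 1026 and 881, and 601 and 924. Both lists were thus highest in mCherry HFD, and their part in the results below was tested only by leaving out the cluster with macrophage markers. That left 97 and 30 nuclei in mCherry HFD, against 429 and 663 in mCherry SD, 323 and 734 in Tert HFD and 1452 and 365 in TertCi HFD. Leiden resolution 2.0, a finer clustering, left 110 and 34 in mCherry HFD, against 590 and 819 in mCherry SD. Both settings thus rest on few mCherry HFD nuclei. UMIs of Tert were 3.27 to 3.98 CPM in the 4 mCherry libraries and 2.01 to 2.76 CPM in the 4 Tert and TertCi libraries, and mCherry had 0 to 17 UMIs in a library. The 3' assay reads the end of a transcript and the end of the cassette is not given in the labels, so these features do not check the genotypes, and every direction below is for the libraries as labelled.

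The question of the first comparison was how the High Fat diet changed these genes in adipocytes of the control genotype, and of the next ones whether Tert or TertCi altered them on that diet. In adipocyte-like nuclei of mCherry HFD, the receptor Adrb3, the phosphodiesterase Pde3b, the activator Abhd5 and the lipases Lipe and Mgll were lower than in mCherry SD, and the inhibitor G0s2 was higher. Adrb3 fell by 2.96 on the log2 scale, and the other falls were between 0.89 and 1.84. In Tert HFD and in TertCi HFD, Adrb3, Pde3b and Lipe were higher than in mCherry HFD. In TertCi HFD, Mgll was also higher and G0s2 lower. Plin1 and Pnpla2 passed the test in none of these comparisons, and Tert HFD and TertCi HFD did not differ by the test in any member.

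**Figure D1:**
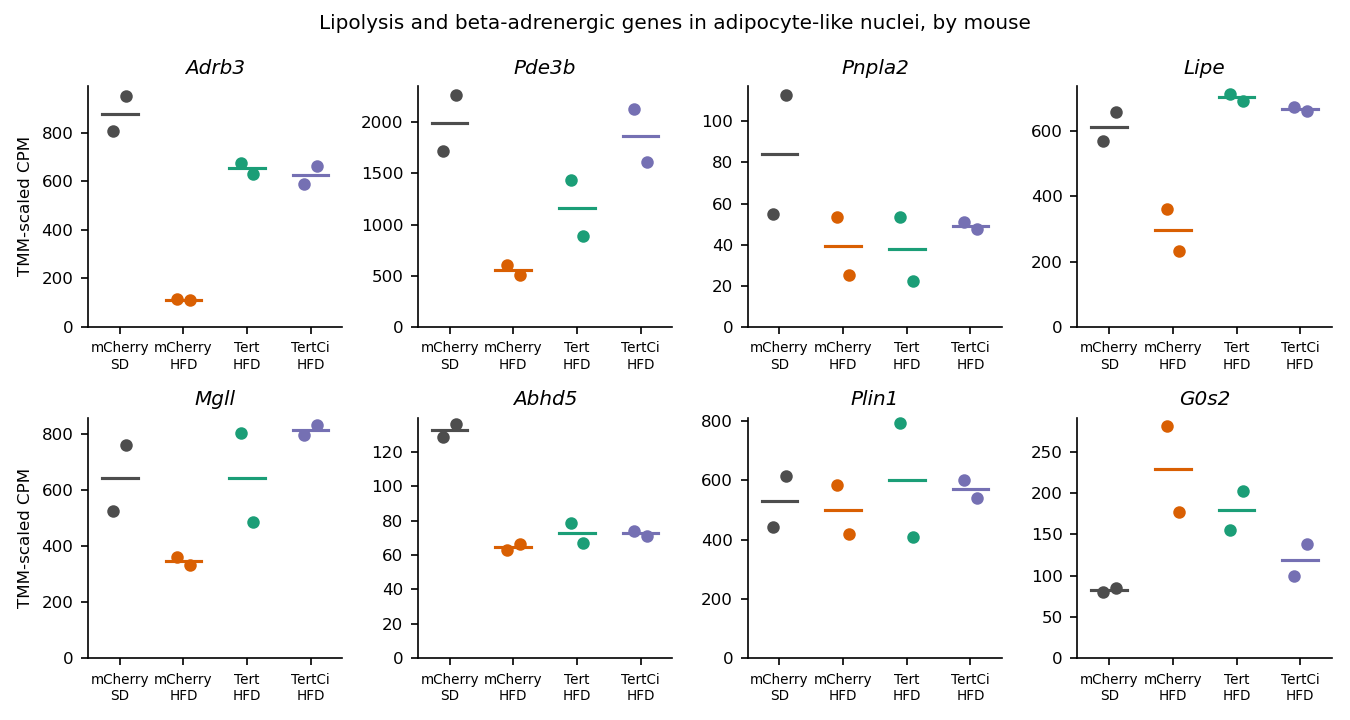
Level of each gene in adipocyte-like nuclei, as TMM-scaled CPM on the y axis, with 1 point per mouse and a bar at the mean of the 2 mice of a group; each panel has its own axis starting at 0. Both mCherry HFD mice are lowest for Adrb3 and Pde3b, with Adrb3 at 114 and 111, and both mCherry SD mice are lowest for G0s2.

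Counts were summed per mouse over adipocyte-like nuclei and tested with the quasi-likelihood test of edgeR on all 15363 genes that passed its filter, with Benjamini-Hochberg adjustment over all of them and a threshold of 0.05. All 8 members passed the filter. With 2 mice a group there were 4 residual degrees of freedom (3 in endothelial-like nuclei) and a spread shared over the groups. The quasi-likelihood fit also draws the spread of each gene toward that of other genes. The p-values therefore rest in part on spread borrowed from other genes, and on more than the residual degrees of freedom. Of the members, 6 were called between the diets, 1 higher and 5 lower, against 26.1% of all genes tested (15.7% higher and 10.4% lower). The comparison of Tert HFD with mCherry HFD called 3 members, all higher, against 10.6% of genes (3.93% higher and 6.63% lower), and that of TertCi HFD with mCherry HFD called 5, 4 higher and 1 lower, against 24.5% (9.95% higher and 14.5% lower). The median log2 fold change of the members was -1.03, 0.58 and 0.70 in these comparisons, beside 0.05, -0.02 and -0.04 over all genes tested. The comparisons share the mCherry HFD mice, so the level of those mice enters all 3, and their values are given side by side only. Values are TMM-scaled CPM, that is, UMIs relative to the library's total after a scaling that sets the typical gene equal between libraries. Scaling to total counts instead shifted the median of all genes by 0.40 in the diet comparison and by -0.35 and -0.52 in those of Tert HFD and TertCi HFD. It called 3 members between the diets (1 higher, 2 lower), 1 for Tert HFD (higher) and 3 for TertCi HFD (2 higher, 1 lower). Over all genes it turned 2405 higher and 1598 lower diet calls into 3387 and 488, 604 and 1018 Tert calls into 153 and 1635, and 1528 and 2229 TertCi calls into 377 and 4002. Changes, and the order of mice in TMM-scaled values, are therefore relative to the typical gene. Tert HFD and TertCi HFD were not tested against mCherry SD.

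Adrb3, the receptor through which catecholamines act on mouse adipocytes, stood at 805 and 950 TMM-scaled CPM in mCherry SD, 114 and 111 in mCherry HFD, 675 and 629 in Tert HFD and 588 and 662 in TertCi HFD. Both mCherry HFD mice lay far below all 6 others. In these TMM-scaled values the mice of Tert HFD and TertCi HFD lay below both mCherry SD mice. Without TMM, the means were 831.5 CPM (standard deviation 153.1) in mCherry SD and 635.5 (standard deviation 134.4) in Tert HFD. The mean was 542.2 (standard deviation 21.8) in TertCi HFD. Tert HFD then overlapped mCherry SD, and TertCi HFD still lay below it. The log2 fold change was -2.96 (SE 0.188, edgeR adjusted p = 5.84e-05) between the diets, 2.53 (SE 0.186, edgeR adjusted p = 0.00114) for Tert HFD over mCherry HFD and 2.47 (SE 0.185, edgeR adjusted p = 0.000468) for TertCi HFD over mCherry HFD. The fall on the High Fat diet was called under all 19 alternatives, between -3.17 and -2.56. The 2 rises were called under all but the subtraction of free RNA, where they were 2.51 and 2.28 with edgeR adjusted p of 0.110 and 0.0819. Free RNA was estimated at 76.8% and 76.3% of adipocyte-like UMIs in mCherry SD and at 34.7% to 47.1% in the 6 other libraries. The estimate took every UMI of an immune marker in these nuclei as free RNA, and the cluster with macrophage markers was among them. It is too high where such UMIs belong to the nuclei. In macrophage-like nuclei of mCherry SD, Adrb3 stood at 9.63% and 12.4% of its level in free RNA. Without the cluster with macrophage markers, the values were -2.68, 2.30 and 2.18, all called.

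The share of adipocyte-like nuclei with a UMI of Adrb3 was also lowest in mCherry HFD once depth was made equal. Thinned to 1000 UMIs a nucleus, it was 49.8% and 59.2% in mCherry SD, 13.8% and 12.4% in mCherry HFD, 45.2% and 40.9% in Tert HFD and 38.9% and 42.7% in TertCi HFD, with 4 nuclei of Tert HFD rep136 too shallow to enter. Unthinned, it was 89.3% and 96.0%, 71.3% and 59.6%, 93.7% and 64.5%, and 87.8% and 89.5%. The thinned shares of mCherry HFD lay below those of the 6 other mice. In macrophage-like nuclei, which should lack the receptor, the thinned share was 0.151% to 6.52% (0.844% to 34.1% unthinned) at median depths of 1338.5 to 6278 UMIs, against 2083 to 17003 UMIs in adipocyte-like nuclei.

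Pde3b, the phosphodiesterase through which insulin lowers cAMP, was at 1719 and 2267 TMM-scaled CPM in mCherry SD, 608 and 503 in mCherry HFD, 1434 and 885 in Tert HFD and 2126 and 1610 in TertCi HFD. Both mCherry HFD mice were the lowest, the mCherry SD and TertCi HFD mice overlapped, and Tert HFD lay between. Without TMM, the means were 1894 CPM (standard deviation 494) in mCherry SD, 692 (standard deviation 108) in mCherry HFD and 1156 (standard deviation 560) in Tert HFD. Tert HFD then overlapped both mCherry groups. In log2 terms the difference was -1.84 (SE 0.278, edgeR adjusted p = 0.00219) between the diets, 1.06 (SE 0.273, edgeR adjusted p = 0.0377) for Tert HFD and 1.75 (SE 0.277, edgeR adjusted p = 0.00310) for TertCi HFD. The diet difference was called under all 19 alternatives, and the rise in TertCi HFD under all but the subtraction of free RNA (1.41, edgeR adjusted p = 0.117). The rise in Tert HFD was called under 10 of 19 and is less firm: without mCherry HFD rep128, mCherry HFD rep129 or Tert HFD rep134 it was 1.22, 0.97 and 0.69, with edgeR adjusted p of 0.142, 0.173 and 0.124. It was 0.51 without the cluster with macrophage markers, 0.53 at Leiden resolution 2.0 (a finer clustering) and 0.73 under total-count scaling (edgeR adjusted p = 0.381, 0.355 and 0.183). It was also lost with clusters of a second lineage, with free RNA subtracted and in thinned nuclei (0.95, 0.89 and 0.92).

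Among the enzymes, Lipe was at 569 and 659 TMM-scaled CPM in mCherry SD, 360 and 231 in mCherry HFD, 715 and 693 in Tert HFD and 675 and 661 in TertCi HFD. Both mCherry HFD mice lay below the 6 others, and the 4 mice with Tert or TertCi lay above both mCherry SD mice. Without TMM, the means were 582 CPM (standard deviation 99.3) in mCherry SD, 684 (standard deviation 126) in Tert HFD and 581 (standard deviation 33.5) in TertCi HFD. Tert HFD and TertCi HFD then overlapped mCherry SD. The log2 difference was -1.04 (SE 0.219, edgeR adjusted p = 0.00858), 1.24 (SE 0.219, edgeR adjusted p = 0.0119) and 1.17 (SE 0.219, edgeR adjusted p = 0.00596). None of the 3 was called without the cluster with macrophage markers, where they were -0.51, 0.75 and 0.60 with edgeR adjusted p of 0.162, 0.130 and 0.136, and total-count scaling gave -0.64, 0.88 and 0.64 with 0.0899, 0.0514 and 0.0835. Without mCherry HFD rep129 the rise in Tert HFD was 1.00 with an edgeR adjusted p of 0.0769.

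Mgll was at 525 and 762 TMM-scaled CPM in mCherry SD, 362 and 332 in mCherry HFD, 804 and 486 in Tert HFD and 797 and 834 in TertCi HFD. The mCherry HFD mice were again the lowest, Tert HFD overlapped mCherry SD and TertCi HFD, and both TertCi HFD mice lay above both mCherry SD mice. Without TMM, the means were 613 CPM (standard deviation 200) in mCherry SD and 432 (standard deviation 37.4) in mCherry HFD. They were 644 (standard deviation 320) in Tert HFD and 708 (standard deviation 7.59) in TertCi HFD. Tert HFD then overlapped mCherry HFD, and TertCi HFD overlapped mCherry SD. The log2 fold change was -0.89 (SE 0.260, edgeR adjusted p = 0.0308) between the diets, 0.90 (SE 0.260, edgeR adjusted p = 0.0539) for Tert HFD, which did not pass there, and 1.23 (SE 0.262, edgeR adjusted p = 0.00994) for TertCi HFD. The Tert difference was called by DESeq2 (0.88, adjusted p = 0.0210), by edgeR with no filter on low counts (0.97) and without mCherry SD rep144, Tert HFD rep136 or TertCi HFD rep140 (0.94, 1.27 and 0.94, edgeR adjusted p = 0.0447, 0.0246 and 0.0490). The diet call was lost without mCherry SD rep146, mCherry HFD rep128 or mCherry HFD rep129 (-0.62, -0.97 and -0.87) and the TertCi call without either mCherry HFD mouse (1.31 and 1.21). Without the cluster with macrophage markers, the 2 called differences were -0.42 and 0.69, with edgeR adjusted p of 0.356 and 0.163. Total-count scaling also lost both calls. The diet call of Mgll was kept under 11 of 19 alternatives and its TertCi call under 12, so both are less firm.

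Pnpla2, the first lipase of the cascade, was among the genes with few UMIs, from 30 in mCherry HFD rep129 to 653 in mCherry SD rep146. Its level was 55.0 and 113 TMM-scaled CPM in mCherry SD, 53.6 and 25.1 in mCherry HFD, 53.6 and 22.2 in Tert HFD and 50.9 and 47.4 in TertCi HFD. The 2 mice of a group differed by more than 2-fold in 3 of the 4 groups, and mCherry SD rep146 stood above all others. The diet difference of -1.02 (SE 0.449) did not pass the test (edgeR adjusted p = 0.120), nor did those of Tert HFD and TertCi HFD at -0.08 (SE 0.456) and 0.24 (SE 0.448). With no filter on low counts the diet difference was -1.11 and called (edgeR adjusted p = 0.000200).

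The activator Abhd5 was at 128.6 and 136.3 TMM-scaled CPM in mCherry SD, 63.2 and 66.1 in mCherry HFD, 78.6 and 67.2 in Tert HFD and 73.8 and 71.4 in TertCi HFD. All 6 mice on the High Fat diet, whatever their genotype, lay below both mCherry SD mice. The diet difference was -1.04 (SE 0.174, edgeR adjusted p = 0.00342), and those of Tert HFD and TertCi HFD were 0.18 (SE 0.175) and 0.17 (SE 0.173), with edgeR adjusted p of 0.522 and 0.497. Under total-count scaling the diet difference was -0.63 (edgeR adjusted p = 0.0599) and the other 2 turned to -0.16 and -0.35. Without the cluster with macrophage markers they were -0.37 (edgeR adjusted p = 0.342), -0.50 and -0.55.

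Plin1, the droplet coat, was at 444 and 613 TMM-scaled CPM in mCherry SD, 583 and 418 in mCherry HFD, 792 and 408 in Tert HFD and 601 and 540 in TertCi HFD. The 4 groups overlapped. The log2 fold changes were -0.07 (SE 0.304), 0.26 (SE 0.304) and 0.18 (SE 0.304), with edgeR adjusted p of 0.882, 0.609 and 0.692, and total-count scaling turned all 3 to 0.32, -0.05 and -0.34.

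G0s2, the inhibitor of the first lipase, went the other way between the diets. It was at 80.8 and 85.6 TMM-scaled CPM in mCherry SD, 282 and 178 in mCherry HFD, 156 and 203 in Tert HFD and 99.5 and 138.04 in TertCi HFD. The mCherry SD mice were the lowest, the TertCi HFD mice lay below both mCherry HFD mice, and Tert HFD overlapped mCherry HFD. As CPM without TMM, the mean was 287 (standard deviation 98.4) in mCherry HFD and 171 (standard deviation 4.23) in Tert HFD. Tert HFD then lay below mCherry HFD with no overlap. In log2 terms the difference was 1.48 (SE 0.258, edgeR adjusted p = 0.00412) between the diets, -0.38 (SE 0.251, edgeR adjusted p = 0.349) for Tert HFD and -0.97 (SE 0.253, edgeR adjusted p = 0.0209) for TertCi HFD. Without mCherry HFD rep128 the first and the last were 1.08 and -0.57, with edgeR adjusted p of 0.0518 and 0.231, and without TertCi HFD rep138 the last was -0.73 with 0.145. Without the cluster with macrophage markers they were 2.13 and -1.70, both called, and with free RNA subtracted 2.38 and -1.43, neither called (edgeR adjusted p = 0.336 and 0.807). In thinned nuclei, 5.1% and 9.3% carried a UMI of G0s2 in mCherry SD, 33.6% and 22.5% in mCherry HFD, 15.3% and 16.5% in Tert HFD and 9.3% and 11.9% in TertCi HFD. Unthinned, they were 25.6% and 38.4%, 94.3% and 74.2%, 73.6% and 32.9%, and 42.6% and 48.5%. In macrophage-like nuclei at most 2.37% carried one thinned and 6.52% unthinned, at the depths given for Adrb3.

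**Figure D2:**
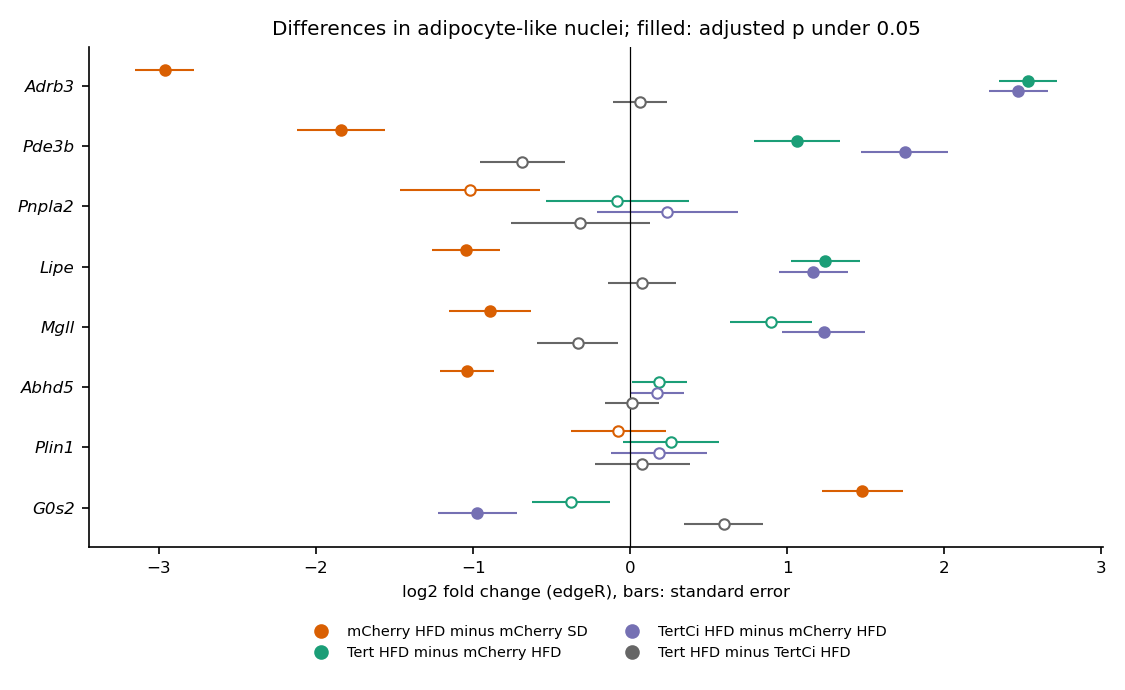
Log2 fold change of each gene in adipocyte-like nuclei on the x axis, with a bar for the standard error, for the 4 comparisons of groups; filled points had an adjusted p under 0.05. Adrb3 has the largest differences, -2.96 between the diets and 2.53 and 2.47 for Tert HFD and TertCi HFD over mCherry HFD, and all points of Tert HFD minus TertCi HFD are open.

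Tert HFD and TertCi HFD were compared directly. No member was called, no gene of the 15363 was called, 883 genes had an unadjusted p under 0.05, and DESeq2 called no member in adipocyte-like nuclei. The largest differences were -0.69 (SE 0.270) for Pde3b and 0.60 (SE 0.252) for G0s2, both with an edgeR adjusted p of 0.849, so the spread between mice leaves room for differences of that size. For Adrb3 the difference was 0.06 (SE 0.172), for Lipe 0.08 (SE 0.215) and for Mgll -0.33 (SE 0.256). The rise of Mgll and the fall of G0s2 called in TertCi HFD and not in Tert HFD were thus not shown to differ between the genotypes.

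How the called differences moved under the alternatives is drawn member by member. The diet differences of Lipe, Mgll and Abhd5 came closest to 0, at -0.46, -0.32 and -0.37. For Lipe and Mgll that was where clusters were finer (Leiden resolution 2.0), and for Abhd5 where the cluster with macrophage markers was left out.

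**Figure D3:**
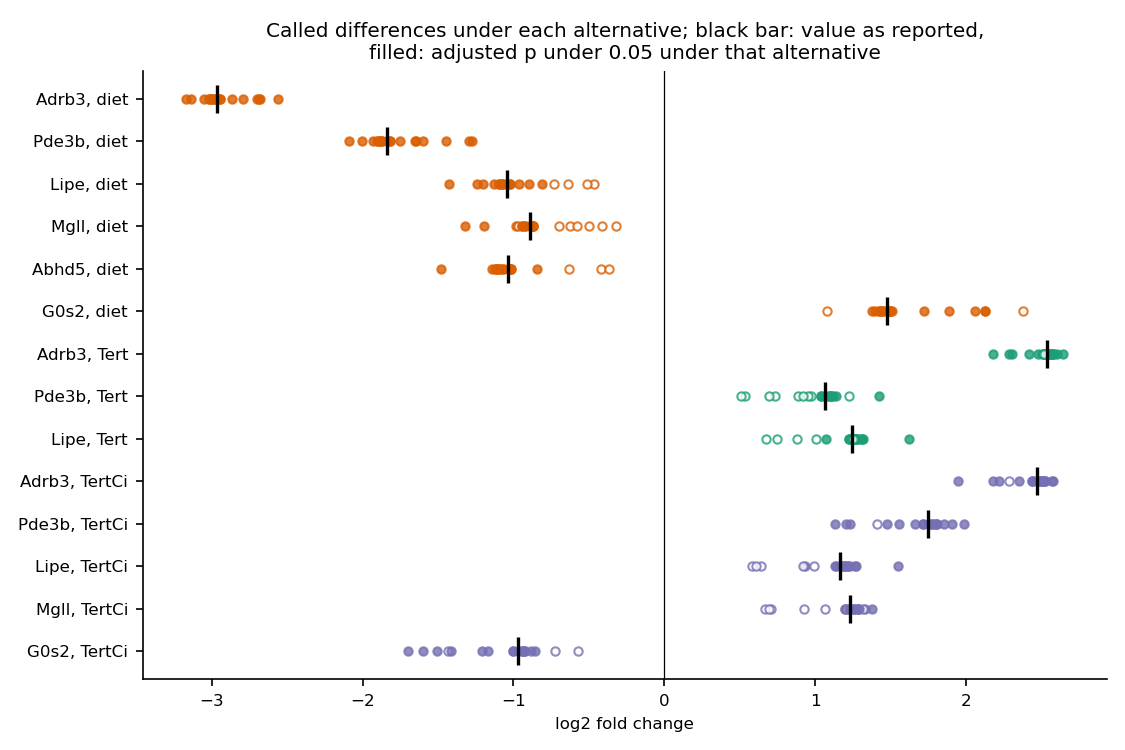
Each called difference in adipocyte-like nuclei (y axis, gene and comparison) as a log2 fold change (x axis): the black bar is the value as reported and each point is 1 of 19 alternatives, filled where the adjusted p was under 0.05. All points of Adrb3 and Pde3b between the diets are filled, and Lipe, Mgll and Abhd5 have open points toward 0.

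The wider list held 62 genes of the same pathway in 10 roles, 3 of them also adipocyte markers (Plin4, Cidec and Acsl1), and 56 were tested. Between the diets 6 rose and 12 fell, for Tert HFD 5 rose and 4 fell, and for TertCi HFD 18 rose and 6 fell. That was 32.1%, 16.1% and 42.9% of those tested, beside 26.1%, 10.6% and 24.5% of all genes. Their median log2 fold change was -0.23, 0.33 and 0.47. Under total-count scaling the counts were 13 and 5, 1 and 5, and 3 and 11, or 32.1%, 10.7% and 25% of the list, beside 25.2%, 11.6% and 28.5% of all genes. Without the cluster with macrophage markers they were 6 and 7, 1 and 0, and 1 and 3 of 54 tested, or 24.1%, 1.85% and 7.41%, beside 14.3%, 0.534% and 6.77% of all 12550 genes tested there. The 1 gene that rose there for Tert HFD, and for TertCi HFD, was Prkg1. No rise counted by role below for Tert HFD or TertCi HFD held without that cluster. Between Tert HFD and TertCi HFD none was called.

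Among the receptors of the list that raise cAMP, the beta-1 receptor Adrb1 was at 13.9 and 16.9 TMM-scaled CPM in mCherry SD and 8.03 and 7.54 in mCherry HFD, a difference of -0.98 (SE 0.353) that did not pass (edgeR adjusted p = 0.0661). Tshr, the thyrotropin receptor, named after its values were seen, was higher by 0.74 and 0.72 in Tert HFD and TertCi HFD (edgeR adjusted p = 0.0436 and 0.0276). Both calls of Tshr were lost under total-count scaling (0.41 and 0.20) and without the cluster with macrophage markers (0.23 and 0.18). Of the G protein, adenylate cyclase and protein kinase A genes, 4 of 10 fell between the diets and none rose, 1 rose and none fell for Tert HFD, and 3 rose and none fell for TertCi HFD. Over all genes 10.4% fell between the diets, and 3.93% and 9.95% rose for Tert HFD and TertCi HFD. Adcy6, an adenylate cyclase, stood at 59.7 and 73.7 TMM-scaled CPM in mCherry SD, 31.7 and 31.0 in mCherry HFD, 55.6 and 52.7 in Tert HFD and 63.8 and 67.0 in TertCi HFD. The mCherry HFD mice were the lowest for Adcy6, and its log2 fold changes were -1.09, 0.79 and 1.06, all called (edgeR adjusted p = 0.00470, 0.0352 and 0.00549) and none of them called under total-count scaling or without the cluster with macrophage markers.

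Of the 6 genes of the insulin arm, 3 fell between the diets and none rose, none was called for Tert HFD, and 5 rose and none fell for TertCi HFD, beside the same shares of all genes. None of the 5 rises held without the cluster with macrophage markers. Pik3r1, the regulatory subunit of PI3-kinase, fell from 1856 and 1615 TMM-scaled CPM in mCherry SD to 294 and 271 in mCherry HFD, and was at 380 and 501 in Tert HFD and 497 and 599 in TertCi HFD. All 6 mice on the High Fat diet thus lay far below both mCherry SD mice. The log2 fold change of Pik3r1 was -2.62 (SE 0.213, edgeR adjusted p = 0.000150) between the diets and 0.95 (SE 0.203, edgeR adjusted p = 0.0102) for TertCi HFD, and 0.63 (edgeR adjusted p = 0.0725) for Tert HFD. Irs1, a substrate of the insulin receptor, was at 403 and 478, 115 and 131, 194 and 178, and 273 and 270 in the same order of groups. Its log2 fold change was -1.85 (SE 0.175, edgeR adjusted p = 0.000315) between the diets and 1.15 (SE 0.173, edgeR adjusted p = 0.00246) for TertCi HFD. Both diet calls held under total-count scaling (-2.20 and -1.45) and without the cluster with macrophage markers (-2.29 and -1.15), and both TertCi calls were lost in each.

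Of the 11 droplet coat and co-factor genes, 3 rose and 4 fell between the diets, 2 rose and 1 fell for Tert HFD, and 6 rose and 3 fell for TertCi HFD. Over all genes 15.7% rose and 10.4% fell, 3.93% rose and 6.63% fell, and 9.95% rose and 14.5% fell in these comparisons. Hilpda, an inhibitor of the first lipase that hypoxia and lipid induce, was at 1.92 and 2.42 TMM-scaled CPM in mCherry SD, 19.0 and 12.6 in mCherry HFD, 9.45 and 15.5 in Tert HFD and 3.14 and 2.49 in TertCi HFD, from 5 to 123 UMIs a mouse. Like G0s2, Hilpda was lowest in mCherry SD and highest in mCherry HFD rep128, and its log2 fold change was 2.87 (SE 0.434, edgeR adjusted p = 0.00222) between the diets and -2.49 (SE 0.399, edgeR adjusted p = 0.00318) for TertCi HFD. Tert HFD and TertCi HFD differed in Hilpda by 2.03 (SE 0.403), which did not pass (edgeR adjusted p = 0.849). Plin2, the coat protein of droplets in many cells, stood at 80.1 and 88.7, 327 and 256, 137 and 110, and 79.1 and 122. Its log2 fold changes were 1.79, -1.24 and -1.55, all called (edgeR adjusted p = 0.00136, 0.0159 and 0.00268). The calls of Hilpda and Plin2 between the diets and for TertCi HFD held under total-count scaling and without the cluster with macrophage markers. All 4 were lost with free RNA subtracted, where Hilpda was 3.35 and -2.38 (edgeR adjusted p = 0.173 and 0.447) and Plin2 0.48 and -0.68 (edgeR adjusted p = 0.856 and 0.957).

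Plaat3, a phospholipase of adipocytes, fell by 1.57 on the log2 scale between the diets (edgeR adjusted p = 0.00155) and rose by 1.18 and 1.37 for Tert HFD and TertCi HFD (edgeR adjusted p = 0.0132 and 0.00294). Pnpla3, a relative of the first lipase, was higher by 1.24 and 1.42 (edgeR adjusted p = 0.0160 and 0.00373). The carboxylesterases Ces1d and Ces1f, which also cleave triglyceride, fell between the diets by 1.96 and 1.93 (edgeR adjusted p = 0.00820 and 0.0106) and were higher in TertCi HFD by 2.12 and 1.43 (edgeR adjusted p = 0.00635 and 0.0349). Of these calls of Plaat3, Pnpla3, Ces1d and Ces1f, only the diet falls of Plaat3 and Ces1f held without the cluster with macrophage markers.

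In the natriuretic peptide arm, which also starts lipolysis, the clearance receptor Npr3 was higher by 0.81 and 1.13 in Tert HFD and TertCi HFD (edgeR adjusted p = 0.0362 and 0.00534), calls lost under total-count scaling (0.46 and 0.60) and without the cluster with macrophage markers (0.34 and 0.58, edgeR adjusted p = 0.457 and 0.156). Prkg1, the kinase that cGMP activates, and Pde3a, a relative of Pde3b, were highest in mCherry HFD, at 135.7 and 203 and at 72.8 and 133 TMM-scaled CPM. Their log2 fold changes were 1.21 and 2.01 between the diets, -1.87 and -1.94 for Tert HFD and -2.26 and -2.75 for TertCi HFD (edgeR adjusted p = 0.00752, 0.00623, 0.00566, 0.0183, 0.000986 and 0.00213). These 6 values all changed sign when the cluster with macrophage markers was left out: Prkg1 to -2.66, 2.21 and 1.71 (edgeR adjusted p = 0.00462, 0.0494 and 0.0374) and Pde3a to -1.36, 1.43 and 0.74, none of the last 3 called. All 6 also changed sign at Leiden resolution 2.0, and both diet values with clusters of a second lineage included. The direction of Prkg1 and Pde3a in adipocyte-like nuclei thus differed with the nuclei taken, and the cause was not tested.

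Each mouse was left out in turn for the named genes of the wider list. Without mCherry HFD rep128 the calls of Plaat3, Pnpla3, Adcy6, Npr3 and Plin2 for Tert HFD, of Pik3r1, Adcy6, Hilpda and Ces1f for TertCi HFD, and of Adcy6 and Ces1f between the diets were lost. Without mCherry HFD rep129 those of Plaat3, Pnpla3, Adcy6, Npr3, Plin2 and Pde3a for Tert HFD, of Pik3r1 and Ces1f for TertCi HFD, and of Prkg1 between the diets were lost. Without mCherry SD rep146 those of Ces1d and Ces1f between the diets were lost. Leaving out Tert HFD rep134 ended the Tert calls of Adcy6, Npr3 and Pde3a, Tert HFD rep136 those of Adcy6 and Plin2, and TertCi HFD rep138 or rep140 the TertCi call of Ces1f. The calls of Irs1, Plaat3, Plin2 and Pnpla3 that these sentences do not name were kept whichever mouse was left out.

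**Figure D4:**
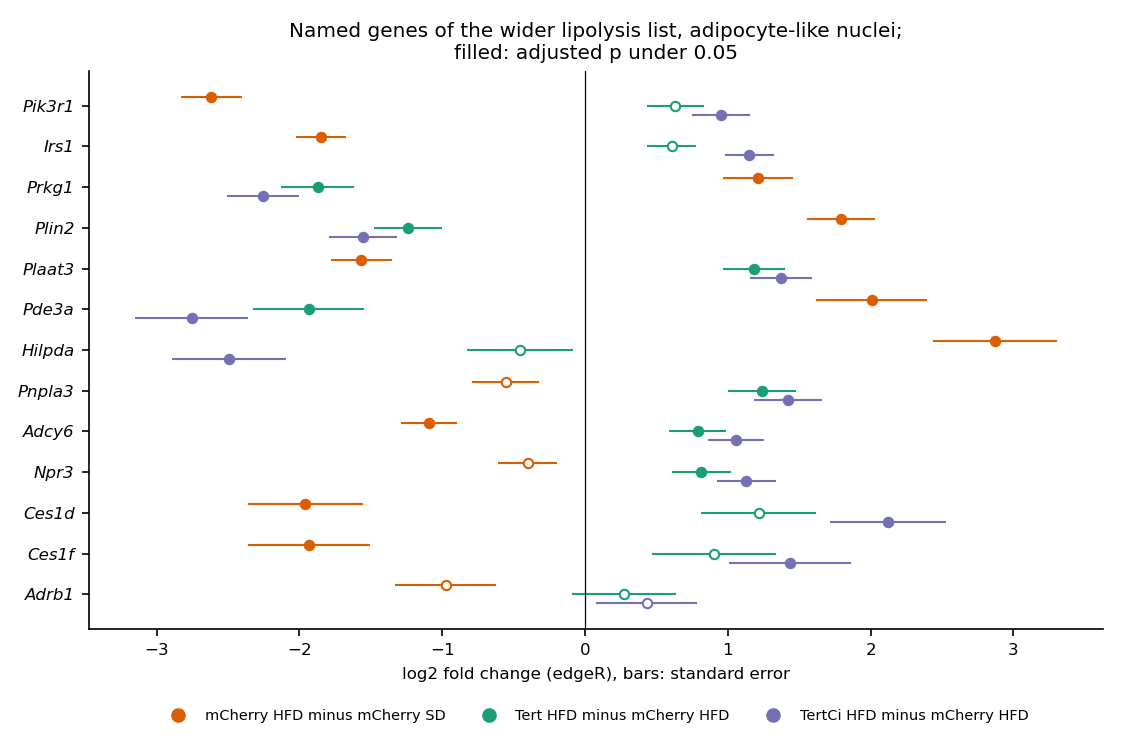
Log2 fold change in adipocyte-like nuclei (x axis, bars are standard errors) of the 12 genes of the wider list with the smallest adjusted p and of Adrb1, for 3 comparisons; filled points had an adjusted p under 0.05. Pik3r1 and Irs1 lie at -2.62 and -1.85 between the diets, and Prkg1 and Pde3a have the opposite sign to them in each comparison.

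Among 3538 other genes with at least 50 UMIs in every adipocyte-like sum, those whose level over the 8 libraries was most like the mean of the members were Slc1a5 (Pearson r = 0.964), Pck1 (0.960), Zfp207 (0.955), Gnai1 (0.952) and Mtor (0.945). These are descriptions over 8 libraries that share their depth and makeup, and Pck1 is one of the adipocyte markers. Of the members themselves, Pde3b (0.916) and Mgll (0.905) lay closest to that mean and G0s2 ran against it (-0.62).

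Outside adipocyte-like nuclei, levels were set beside those of free RNA, read from barcodes of 100 to 400 UMIs, since RNA that leaks from broken cells enters every droplet. In macrophage-like nuclei Adrb3 was at 19.1 and 89.5 CPM in mCherry SD, 1.21 and 3.25 in mCherry HFD, 9.21 and 25.4 in Tert HFD and 26.2 and 20.7 in TertCi HFD. These levels were 6.22% to 17.0% of that of the free RNA of the same library, and the log2 differences of free RNA itself were -4.85, 3.23 and 3.78 for Adrb3 in the 3 comparisons. In progenitor-like nuclei Adrb3 was at 9.80% to 17.4% of free RNA, Plin1 at 6.36% to 15.03%, Lipe at 11.5% to 22.6% and Pde3b at 9.41% to 23.0%. The test called Adrb3, Lipe, Plin1 and Pde3b in macrophage-like and in progenitor-like nuclei in all 3 comparisons, lower on the High Fat diet and higher in Tert HFD and TertCi HFD. Different clusters held most of these nuclei in different groups. A macrophage-like cluster with F13a1 and Cd163 among its leading genes held 93.1% of those of mCherry SD, 1.46% of mCherry HFD, 55.1% of Tert HFD and 70.4% of TertCi HFD. Clusters with Vsig4, Ms4a7 and Gpnmb among theirs held 19.2%, 40.0% and 38.5% of those of mCherry HFD. A progenitor-like cluster led by Col8a1 held 53.7% of those of mCherry HFD and 0.456% of mCherry SD, and one led by C7 15.3% and 69.02%. Leaving out mCherry HFD rep128 ended all 4 Tert calls in both classes, and the TertCi calls of Lipe and Plin1 in both. Without mCherry SD rep146 the diet calls of Adrb3, Lipe and Plin1 in macrophage-like nuclei (-3.62, -1.69 and -1.50) and of Plin1 in progenitor-like nuclei were lost, the last also without mCherry HFD rep128. In macrophage-like nuclei the TertCi calls of Adrb3, Lipe and Plin1 were lost without TertCi HFD rep138, and the Tert call of Plin1 without that mouse or Tert HFD rep134. The Tert call of Pde3b in progenitor-like nuclei was also lost without mCherry HFD rep129, Tert HFD rep134 or Tert HFD rep136. In macrophage-like nuclei 19.4%, 17.9% and 24.1% of genes were called in these comparisons, 8.45% lower, 6.81% higher and 9.57% higher, and in progenitor-like nuclei 11.3%, 10.4% and 18.9%, 3.89% lower, 2.94% higher and 6.40% higher. Adrb3, which both classes should lack, is read as background there, and its share of free RNA was taken as that of the other members. Less that share, Plin1 was above 0 in 1 of 8 libraries in each class. Lipe was at 13.7% to 29.6% of free RNA in macrophage-like nuclei and, less that share, above 0 in 7 of 8 libraries (-3.63 to 29.4 CPM), and in progenitor-like nuclei in 7 of 8 (-5.15 to 11.0 CPM). Pde3b in progenitor-like nuclei was above 0 in 6 of 8 (-45.3 to 72.4 CPM). Free RNA's part in the calls of Lipe, Plin1 and Pde3b was not tested further.

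**Figure D5:**
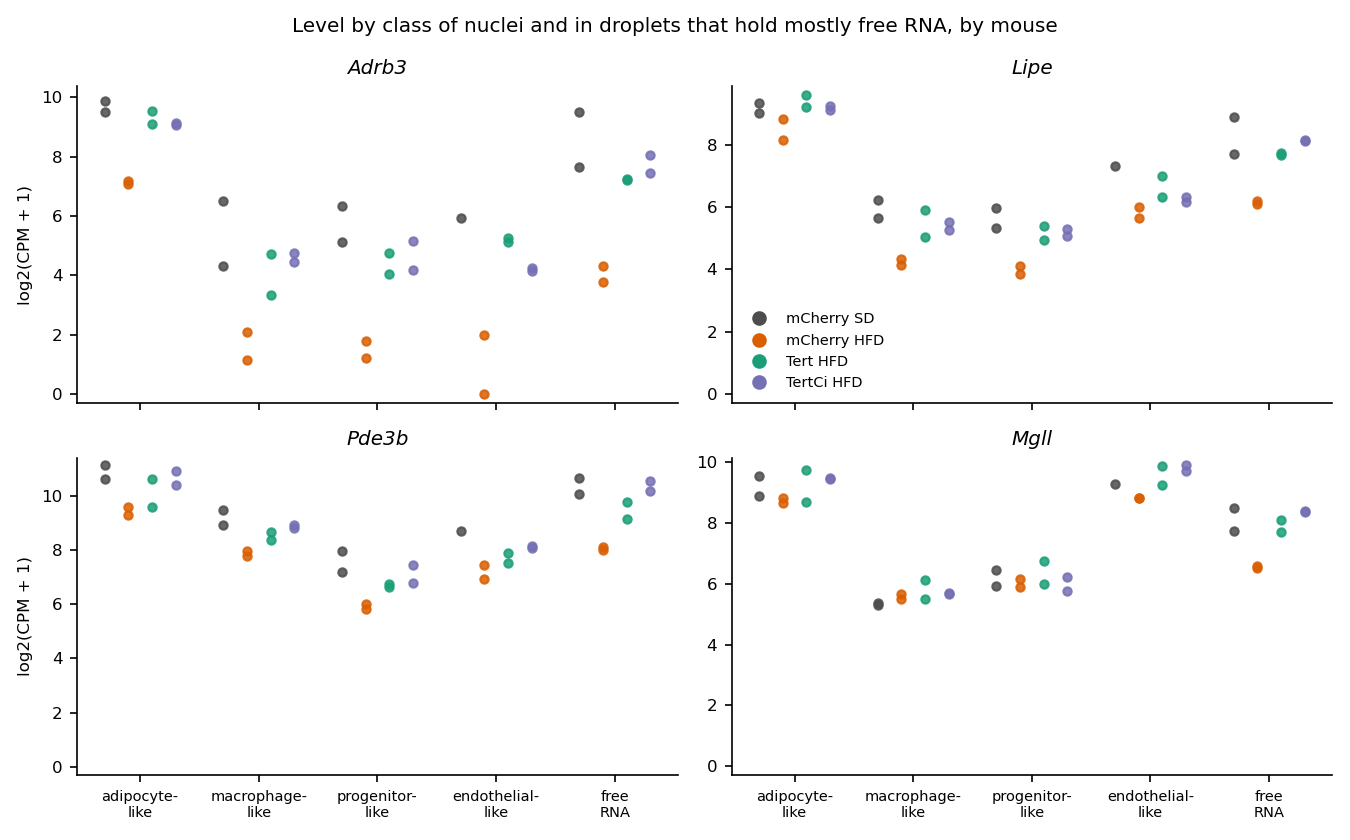
Level of 4 genes by mouse as log2(CPM + 1) on the y axis, in 4 classes of nuclei and in free RNA (x axis), colored by group. Adrb3 in macrophage-like nuclei is at 6.22% to 17.0% of its level in free RNA, Mgll in endothelial-like nuclei is at 83.5% to 146.3% of its adipocyte-like level, and Pde3b lies between 219 and 708 CPM in macrophage-like nuclei.

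Less the same share, Abhd5 was above 0 in every library of the 3 classes (12.8 to 32.9 CPM), Mgll in progenitor-like nuclei in 8 of 8 (8.75 to 77.7 CPM), Lipe in endothelial-like nuclei in 7 of 7 (30.2 to 120.1 CPM) and Pde3b there in 6 of 7 (-19.9 to 275.5 CPM). In endothelial-like nuclei of mCherry HFD rep128 Adrb3 had 0 UMIs, so nothing was subtracted there and its values had to lie above 0, and in mCherry HFD rep129 the share rests on 1 UMI. The highest such levels were those of Mgll in endothelial-like nuclei (440.7 to 938.7 CPM) and of Pde3b in macrophage-like nuclei. All endothelial-like nuclei lay in a single cluster, which had 10 macrophage markers raised. The adipocyte-like cluster with macrophage markers had 8. How far macrophage RNA enters the endothelial-like levels and calls, those of Pde3b among them, was not tested. Pde3b in macrophage-like nuclei was at 32.2% to 90.6% of its level in free RNA, against the 6.22% to 17.0% of Adrb3 in the same nuclei. It was at 480 and 708 CPM in mCherry SD, 219 and 248 in mCherry HFD, 405 and 331 in Tert HFD and 482 and 443 in TertCi HFD, with no overlap between mCherry HFD and any other group. Less the share of free RNA, it was at 379 and 508, 195 and 202, 351 and 236, and 257 and 353. Across groups whose macrophage-like nuclei lay in different clusters, the log2 fold change of Pde3b was -1.50 (SE 0.176, edgeR adjusted p = 0.000140), 0.80 (SE 0.169, edgeR adjusted p = 0.00691) and 1.13 (SE 0.170, edgeR adjusted p = 0.000794). The rise in Tert HFD was lost without mCherry HFD rep128 (edgeR adjusted p = 0.118), and the other 2 were called whichever mouse was left out.

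Mgll, which also degrades an endocannabinoid, was about as high in endothelial-like as in adipocyte-like nuclei of the same mouse, at 83.5% to 146.3% of that level: 629 CPM in mCherry SD rep146, 453 and 455 in mCherry HFD, 948 and 611 in Tert HFD and 973 and 837 in TertCi HFD. That was 175% to 497% of its level in free RNA. Both mCherry HFD mice lay below all others. The log2 difference was 0.86 (SE 0.206, edgeR adjusted p = 0.0103) for Tert HFD and 1.11 (SE 0.206, edgeR adjusted p = 0.000938) for TertCi HFD, where 11.2% and 18.4% of genes were called, 4.77% and 8.51% higher. The diet difference of Mgll was -0.48 (SE 0.289, edgeR adjusted p = 0.418), where 3.07% of genes were called (1.37% lower), with 1 mCherry SD mouse of 21 nuclei on one side, since the other had 8 and did not enter. The Tert call was lost without mCherry HFD rep128, mCherry HFD rep129 or Tert HFD rep134, and the TertCi call without mCherry HFD rep128 (edgeR adjusted p = 0.0532). The other replicated endothelial-like calls were those of Pde3b for TertCi HFD, 0.97 (edgeR adjusted p = 0.00797), and of Adrb3 for Tert HFD and TertCi HFD. The diet values of Pde3b (-1.44, edgeR adjusted p = 0.0259) and Adrb3 also passed, but with 1 mCherry SD mouse, of 41 and 6 UMIs, assumed to vary like the other groups. Adrb3 was read from 0 and 1 UMIs in mCherry HFD and 4 to 36 in the other 5 mice. The diet call of Pde3b was lost without either mCherry HFD mouse and its TertCi call without mCherry HFD rep129 or TertCi HFD rep138. Those of Adrb3, whose UMIs there are read as background, were lost without mCherry HFD rep128, and the TertCi call also without TertCi HFD rep138. Lipe was called in none of them, at -1.58, 0.87 and 0.62 (edgeR adjusted p = 0.101, 0.0957 and 0.220). No member was called between Tert HFD and TertCi HFD in macrophage-like, progenitor-like or endothelial-like nuclei, where 479, 517 and 512 genes had an unadjusted p under 0.05. Abhd5 was at 22.9 to 37.6 CPM in macrophage-like and 23.8 to 36.3 in progenitor-like nuclei. That was 19.8% to 65.2% and 25.5% to 48.3% of its adipocyte-like level in the same mouse. Mural and mesothelial nuclei fell in clusters with markers of a second lineage and were not tested.

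Over whole libraries, with every barcode counted and no naming of nuclei, 7 of the 8 members were lower in mCherry HFD than in mCherry SD, where 38.4% of 24825 genes were called, 16.8% lower. In Tert HFD and in TertCi HFD 6 members were higher than in mCherry HFD, where 21.1% and 31.7% of genes were called, 9.84% and 13.2% higher. In such sums fewer adipocytes and less RNA per adipocyte cannot be told apart, and the adipocyte-like share of nuclei moved in the same way. Clusters found in a single library also enter them. Such clusters held 287, 150 and 64 nuclei of mCherry SD rep146 and 121 and 108 of mCherry HFD rep128. Their part in the values below was not tested. Adrb3 was at 301 and 590 CPM in mCherry SD, 11.8 and 21.9 in mCherry HFD, 177 and 190 in Tert HFD and 223 and 255 in TertCi HFD, so that the mCherry HFD mice were the lowest, the mCherry SD mice the highest and the 4 mice with Tert or TertCi between. Its log2 fold changes were -5.16, 3.84 and 4.26 (edgeR adjusted p = 0.000259, 0.00237 and 0.000699). G0s2 was the member not called between the diets (-0.21, edgeR adjusted p = 0.661), and G0s2 and Pnpla2 were the 2 not called for Tert HFD or TertCi HFD. Over the called nuclei alone, in place of every barcode, G0s2 was called in all 3 comparisons, at -0.90, 1.36 and 1.09 (edgeR adjusted p = 0.0216, 0.0109 and 0.0126), each opposite in sign to its value in adipocyte-like nuclei. With no filter on low counts G0s2 was called for Tert HFD (0.58) and Pnpla2 for TertCi HFD (0.61), the latter also without mCherry SD rep146 (0.67). The rise of Abhd5 in Tert HFD (0.76, edgeR adjusted p = 0.0169) was lost without mCherry HFD rep128, mCherry HFD rep129 or Tert HFD rep136. Under total-count scaling the rises of Abhd5 in Tert HFD and TertCi HFD were 0.39 and 0.52, neither called (edgeR adjusted p = 0.166 and 0.0618). The fall of Pnpla2 (-2.05, edgeR adjusted p = 0.0106) was lost without mCherry HFD rep128 or rep129 (edgeR adjusted p = 0.0602 and 0.0643), and without mCherry SD rep146 it was -1.11. Between Tert HFD and TertCi HFD edgeR called no gene and 1445 had an unadjusted p under 0.05. DESeq2, and edgeR without its filter on low counts, called 1 member, Pde3b, lower in Tert HFD (adjusted p = 0.0122 and 0.00144), where 0.278% and 0.934% of all genes were called.

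How strand was used in counting is not stated in the sources used here. GENCODE vM21 places an antisense gene over Lipe (4732471J01Rik), Mgll (Gm26588), Abhd5 (A730085K08Rik) and Adrb3 (Gm45470), and the gene Lamb3 over G0s2 on the opposite strand. Over Mgll it also places Gm43999, Gm44001 and Gm44005 on the same strand and Gm43937 on the opposite one. Whether reads of these partners were counted with the members was not checked.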

How the data were processed

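Nuclei of 8 mice were counted with a 10x Genomics 3' assay. The deposited values are raw UMI counts per barcode and feature, unfiltered. The submitters' processing notes name Cell Ranger 5.0.1, bcl2fastq 2.20.0 and the genome build mm39, whereas the file headers name Cell Ranger 7.1.0. Use of strand and of intronic reads is not given in the sources used here.

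A barcode counted as a nucleus from 500 UMIs and 300 genes up, if it also held at least 0.1 times the UMIs at percentile 99 among its library's 5000 largest barcodes and at most 5% mitochondrial UMIs. Scrublet's own threshold marked 0% to 0.154% of barcodes and had not worked, so the highest doublet scores were removed at 0.8% per 1000 nuclei (1.59% to 6.35% a library). The remaining nuclei were clustered (scanpy 1.11.5, 2000 variable genes without the members, Leiden resolution 1.0) into 35 clusters. They were named by markers: 15 clusters with markers of a second lineage (10032 nuclei) and 1 without a name (680) were left out. Whether the kept nuclei hold doublets was not tested further. Macrophage-like, progenitor-like and endothelial-like clusters were tested where a library held at least 20 nuclei.

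Counts were summed per mouse and class, scaled by TMM and tested with edgeR 4.0.16 (R 4.3.3; quasi-likelihood, all groups in 1 fit, expression filter, Benjamini-Hochberg adjustment over all genes). DESeq2 1.42.0, other scalings, no filter, leaving out each mouse, other nuclei or clusterings, thinning and free-RNA subtraction were alternatives. The set without the cluster with macrophage markers, and the 100 to 400 UMI window for free RNA in place of 10 to 100, were chosen after seeing the data. Tested on simulated data for the diet comparison (15363 genes), the fit recovered 33 of 100 genes changed 2-fold and 100 of 100 changed 4-fold, with 4 false calls. The simulated counts had a single mean profile and a single spread for all genes, and as many genes raised as lowered. Far fewer genes were changed in them than were called in the data, so these numbers do not give the error rate in the data. Intervals and shares cover counting error only.

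All members are named. Of the wider list, the 12 genes with the smallest adjusted p were named, plus Adrb1 and 1 further gene that is not reported here, and the 5 genes most like the members by correlation. The members and lists were chosen with earlier results of these data known. Nuclei were handled in batches of 2 in random order per the labels, but which mice shared a batch is not recorded, so batch and group cannot be told apart.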

Additional observations from a re-analysis of the deposited data

Results flagged for a closer look

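Mgll was also high in a class that no comparison used. In 102 epithelial-like nuclei of mCherry SD rep146 it stood at 1124 CPM (536 UMIs), and in 330 epithelial-like nuclei of mCherry HFD rep128 at 100.4 CPM. The nuclei were of different clusters: 64 and 38 of those of mCherry SD rep146 lay in clusters led by Akr1b7 and Ptprt, and those of mCherry HFD rep128 had 0 in the first and 73 in the second, with the rest in clusters led by Adam28, Gm45826 and Rgs22. These were the only libraries with at least 20 such nuclei, so no test was made.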

How the results depend on the processing

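No paired analysis was possible because the groups share no replicate numbers. In adipocyte-like nuclei 6, 3 and 5 members were called between the diets, for Tert HFD and for TertCi HFD. These counts were 3, 1 and 3 under total-count scaling, at Leiden resolution 2.0 and without the cluster with macrophage markers. Over all genes 26.1%, 10.6% and 24.5% were called, and 25.2%, 11.6% and 28.5%, 14.2%, 0.447% and 6.62%, and 14.3%, 0.534% and 6.77% in these settings. Free RNA was estimated from the immune markers, as given for Adrb3, at 76.8% and 76.3% of adipocyte-like UMIs in mCherry SD and 34.7% to 47.1% in the 6 other libraries. Every UMI of those markers was taken as free RNA, so the estimate may be too high. Subtracting free RNA left 5 between the diets (11.8% of genes) and 0 and 0 for Tert HFD and TertCi HFD (0 and 1 of 11814 genes called). Thinning left 3 for TertCi HFD (8.54% of genes). Leaving out 1 mouse gave 4 to 6, 1 to 4 (1 without mCherry HFD rep129) and 3 to 5 (3 without mCherry HFD rep128), with 6.25% to 28.5%, 0.746% to 10.3% (0.746% without mCherry HFD rep129) and 6.01% to 26.9% (6.01% without mCherry HFD rep128) of all genes. In whole libraries such fits gave 6 to 7, 5 to 6 and 6 to 7, with 18% to 38.4%, 2.71% to 24.2% and 8.04% to 34.2% of genes, and DESeq2 or no filter called 1 member between Tert HFD and TertCi HFD (0.278% and 0.934% of genes). Over the other classes 31 calls became 12 to 32 (12 without mCherry HFD rep128, where the calls over all genes fell from 15268 to 4247). The cause of these changes was not tested.

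Values that turned sign, in the order diet, Tert HFD, TertCi HFD where not named, were as follows. Under total-count scaling Plin1 was 0.32, -0.055 and -0.34, Abhd5 -0.16 (Tert HFD) and -0.35 (TertCi HFD) and Pnpla2 -0.29 (TertCi HFD), and in whole libraries G0s2 was 0.22 (diet) and -0.040 (TertCi HFD) and Pnpla2 -0.15 (Tert HFD). At Leiden resolution 2.0 Plin1 was 0.57, -0.36 and -0.46, Prkg1 -2.46, 2.09 and 1.68, Pde3a -1.47, 1.62 and 0.95, Abhd5 -0.42 (Tert HFD) and -0.49 (TertCi HFD) and Pnpla2 -0.51 (TertCi HFD). Without the cluster with macrophage markers Plin1 was 0.56, -0.34 and -0.47, Prkg1 -2.66, 2.21 and 1.71, Pde3a -1.36, 1.43 and 0.74, Abhd5 -0.50 (Tert HFD) and -0.55 (TertCi HFD) and Pnpla2 -0.56 (TertCi HFD). Thinned, Plin1 was 0.18, -0.13 and -0.15 and Pnpla2 -0.39 (TertCi HFD). With free RNA subtracted Pnpla2 was 0.13 (diet), Plin1 -0.093 and Abhd5 -0.17 (TertCi HFD). With clusters of a second lineage included, the diet values of Plin1, Prkg1 and Pde3a were 0.071, -1.13 and -0.031. For Tert HFD minus TertCi HFD, Abhd5 was -0.040 and Adrb3 -0.0083 there, and Abhd5 was -0.015 with no filter, -0.0061 with members among the variable genes and -0.22 thinned.

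Leaving out each mouse in turn also turned values of either sign. Between the diets Plin1 ran from -0.36 to 0.15. For Tert HFD Plin1 ran from -0.28 (without Tert HFD rep134) to 0.71, Pnpla2 from -0.90 to 0.67 (without mCherry HFD rep128) and G0s2 from -0.62 to 0.024 (without mCherry HFD rep128). For TertCi HFD Pnpla2 ran from -0.082 (without mCherry HFD rep129) to 0.99. For Tert HFD minus TertCi HFD Plin1 ran from -0.49 to 0.48, Abhd5 from -0.12 to 0.12, Pnpla2 from -1.16 to 0.13 and Adrb3 from -0.020 to 0.13. In whole libraries G0s2 ran from -0.76 to 0.19 between the diets, from -0.0088 to 0.94 for TertCi HFD and from -0.13 to 0.41 for Tert HFD minus TertCi HFD, and Pnpla2 from -0.098 to 0.42 for Tert HFD. Apart from Prkg1 and Pde3a, no value that turned had passed the test. In adipocyte-like nuclei 949 of the other values kept their direction and their side of the threshold, 159 lost the call and 10 gained one. Of the members, Pnpla2 had the fewest UMIs in 7 of the 8 mice.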
